A study of Saccharomyces cerevisiae with 24 samples.

Results

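The response of budding yeast strain Mut1 to salt is described here from RNA-seq, as the 2 libraries taken after 10 min in 0.4 M NaCl against the 2 taken at 0 min. These 4 of the study's 24 libraries were chosen by strain and time in their column names. Mut1 carries Ypd1 with M20D and Sln1 with E1101K, E1110K and S1179D. Mut2 (Ypd1 M20D and M92K, with the Sln1 changes of Mut1), Mut3 (Ypd1 I13D, and Sln1 E1101K, L1109K, E1110K and S1179D) and the WT strain were sampled at the same times and are used for comparison, with 2 libraries at each of 0, 10 and 20 min. Each is a haploid derivative of W303-1a with sho1::HIS3 and a qVenus reporter under the STL1 promoter at leu2::LEU2. In every strain, WT included, the YPD1 and SLN1 loci were replaced with marked cassettes, carrying TRP1 and HPH for YPD1 and URA3 and KanMX for SLN1. Mid-log cultures in SC (synthetic complete) medium were given the salt. No label says that both libraries of a group had their own culture, so the tests measure the spread between these libraries, which may be technical.

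Yeast senses hyperosmotic stress through the HOG pathway, which ends in the MAP kinase Hog1. In its Sln1 branch, the sensor histidine kinase Sln1 passes phosphate through the transfer protein Ypd1 to the response regulators Ssk1 and Skn7. Osmotic stress lowers this flow, and unphosphorylated Ssk1 then turns on the kinases Ssk2 and Ssk22, which act on Hog1 through Pbs2. The other branch starts at Sho1, whose gene is deleted here. Active Hog1 raises glycerol synthesis and the transcription of osmostress genes, while the general stress factors Msn2 and Msn4 act on genes with the stress response element (STRE). In parallel, the genes for making ribosomes, many of which carry the PAC and RRPE motifs, are turned down in many stresses.

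The values are FPKM, fragments scaled to the transcript's length in kilobases and to the size of the library, so levels are already divided by transcript length. The number of reads behind each library is unknown, and so is the precision that depth would give. The sum of FPKM was 2394380 and 2205371 in the Mut1 10 min libraries and 2756485 and 2573680 in the Mut1 0 min libraries. SHO1 was at 0 FPKM in all 24 libraries. The MATa markers STE2, MFA1 and MFA2 were present, and the MAT alpha genes MF(ALPHA)1 and STE3 reached at most 2.05 and 0.596 FPKM in any library. The other 2 of the 4 MAT alpha markers listed, MF(ALPHA)2 and SAG1, averaged 1 FPKM or more over the 24 libraries, so they were not absent. In bulk RNA, fewer cells with a transcript and less transcript per cell cannot be told apart. The libraries fell into 2 sets in which 3 ribosomal protein genes had very different levels. RPL43A was at 15.8 to 63.7 FPKM in 12 libraries (every 0 min library and the 10 min libraries of WT and Mut1) and at 494 to 1517 FPKM in the other 12, and RPL22A and RPL36B were split in the same way. No label names this division. It is described by these 3 genes alone, and whether other features follow it was not tested. Both times of Mut1 and of WT lie within 1 set, whereas the 10 min libraries of Mut2 and Mut3 lie in the other.

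The promoters of some genes that rose or fell can be shown in short windows from the R64 reference (the sequence of the sacCer3 build). The windows are read 5′ to 3′ on the strand of the gene. Only genes with a site are printed, and not all of them are among the largest changes. The first set holds the STRE (AGGGG, or CCCCT when it lies on the other strand), in capitals, nearest to the start of 6 genes whose mRNA rose. The STRE lay 175 bases before the gene start in STL1, 133 in CTT1, 239 in ALD3, 190 in HSP12, 34 in GPD1 and 274 in GPP2.
STL1 (chrIV:1507818-1507847, plus strand): cttcaattttgtCCCCTtcaacgctgcttg
CTT1 (chrVII:654489-654518, plus strand): catttatcgtatCCCCTactgctacacgta
ALD3 (chrXIII:601094-601123, minus strand): ttgttgatcagcCCCCTtcttaagctgatt
HSP12 (chrVI:107054-107083, plus strand): gttccggtcgtcCCCCTcttgatctgaaag
GPD1 (chrIV:411779-411808, plus strand): ttgtacacccccCCCCTccacaaacacaaa
GPP2 (chrV:280939-280968, minus strand): tacatagctgccCCCCTaaacgggcctccc
The second set holds the PAC motif (GATGAG, or CTCATC on the other strand), in capitals, nearest to the start of 4 genes whose mRNA fell. It lay 214 bases before the gene start in TOD6, 66 in DHR2, 164 in RRP12 and 157 in SYO1.
TOD6 (chrII:117363-117392, plus strand): cgagaccaatgcGATGAGacacttttctac
DHR2 (chrXI:288767-288796, plus strand): tcgatgagatgaGATGAGgttatgatatat
RRP12 (chrXVI:529547-529576, plus strand): atatcatctcatCTCATCgcgcaattagaa
SYO1 (chrIV:340274-340303, minus strand): atctcatctcatCTCATCcatttatctacc

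After 10 min of salt, osmostress, general stress and trehalose genes were up in Mut1 by up to 275-fold, and nearly all tested genes of ribosome biogenesis were down, by a median of 2.09 on the log2 scale. Of 6359 features tested, 1006 (15.8%) rose and 985 (15.5%) fell at an adjusted p under 0.05 (limma on log2(FPKM + 1)), 31.3% in all. Of these, 512 rose and 515 fell at least 2-fold, and 82 rose but only 17 fell at least 8-fold. The median change over all tested features was 0.03. Column suffixes pair the libraries, and with the pair as a block 1998 features (31.4%) rose and 1699 (26.7%) fell, among them all 1991 called without it. Fits that left out 1 of the 4 libraries called 687 to 928 rises and 725 to 800 falls, and 1233 features were called in all 4.

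**Figure D1:**
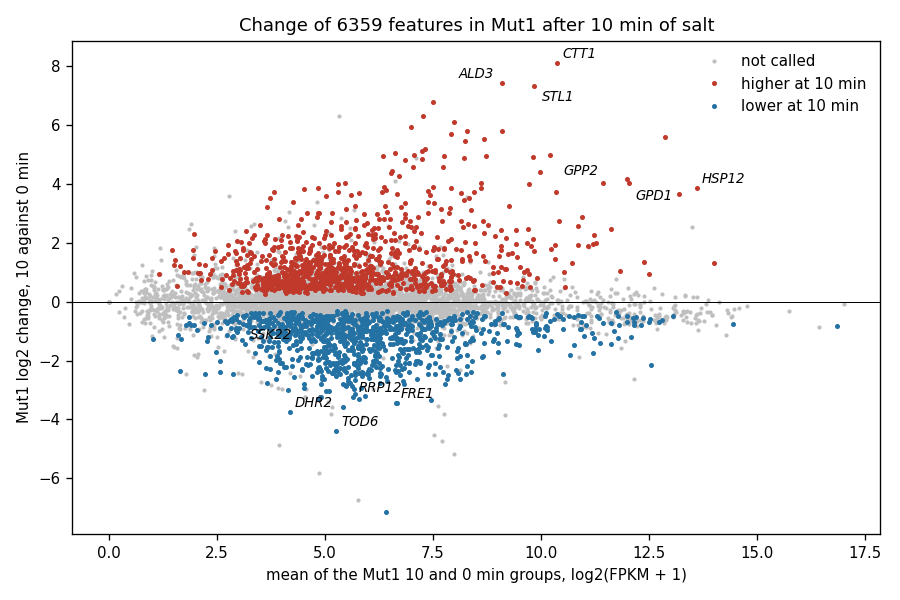
Log2 change of each of the 6359 tested features in Mut1 at 10 against 0 min (vertical axis) plotted by its mean level in the 2 groups, log2(FPKM + 1) (horizontal axis). Red points rose and blue points fell at an adjusted p under 0.05; CTT1, ALD3 and STL1 stand at the top, at log2 changes of 8.10, 7.42 and 7.33, and the lowest blue point is MIN3, which is listed at 0 FPKM in both 10 min libraries.

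Nearly all measured targets of Hog1 rose; coordinates given with genes are those of R64. Of 28 tested, 26 rose and 1 fell, with a median log2 change of 3.01, beside 15.8% of all features that rose. This and the other lists were chosen with earlier results of these data known, so such shares are not independent of the data. STL1, the glycerol-proton symporter of the plasma membrane and the gene whose promoter drives the reporter (chrIV:1508005-1509714, plus strand), had 1797 and 1843 FPKM in the Mut1 10 min libraries and 10.6 and 10.1 FPKM in the 0 min libraries. The groups did not overlap, and the log2 change was 7.33 ± 0.11 (SE), or 161-fold on the log2(FPKM + 1) scale (adjusted p = 3.44e-15). GPD1, the glycerol-3-phosphate dehydrogenase that starts glycerol synthesis (chrIV:411825-413000, plus strand), had 8108 and 7683 FPKM at 10 min and 522 and 446 FPKM at 0 min, a 16.3-fold rise (adjusted p = 5.55e-11). GPP2, the phosphatase of the next step (chrV:279930-280682, minus strand), had 4911 and 5532 FPKM at 10 min and 313 and 327 FPKM at 0 min, a 16.2-fold rise (adjusted p = 5.56e-11). For both enzymes the libraries in salt lay well above those before it. The GPP2 paralogue GPP1 rose 2.53-fold (adjusted p = 3.02e-06). Over the list for glycerol metabolism and transport, 8 of 14 genes rose and none fell at this threshold (11 rose with the block). The glycerol channel gene FPS1 had 39.9 and 51.5 FPKM at 10 min and 39.8 and 51.7 FPKM at 0 min (adjusted p = 1.00).

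CTT1, the cytosolic catalase (chrVII:654634-656322, plus strand), showed the largest called rise, with 2407 and 2886 FPKM at 10 min and 8.06 and 9.16 FPKM at 0 min (275-fold, log2 change 8.10 ± 0.22 SE, adjusted p = 4.98e-12). ALD3, an aldehyde dehydrogenase, had 945 and 1244 FPKM at 10 min and 4.30 and 6.55 FPKM at 0 min (172-fold, adjusted p = 5.55e-11). Both genes were low before salt and abundant after it. Like STL1 they showed no overlap between the groups, as did all 1991 called features. HSP12, a small heat shock protein that binds membranes, had 27590 and 18990 FPKM at 10 min and was already at 1954 and 1269 FPKM at 0 min, a 14.5-fold rise (adjusted p = 1.03e-05). GRE2, a methylglyoxal reductase (chrXV:43694-44722, plus strand), had 2822 and 3472 FPKM at 10 min and 456 and 620 FPKM at 0 min (5.88-fold, adjusted p = 1.89e-06). ENA1, a sodium-exporting ATPase (chrIV:535192-538467, minus strand), had 18.7 and 18.9 FPKM at 10 min and 3.74 and 3.40 FPKM at 0 min (4.35-fold, adjusted p = 1.16e-07), and its reads cannot be told with certainty from those of its near-identical copies ENA2 and ENA5. The member that fell, AQR1, a multidrug exporter, had 9.30 and 5.78 FPKM at 10 min and 32.3 and 32.0 FPKM at 0 min (log2 change -1.99 ± 0.29 SE, adjusted p = 8.13e-05).

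**Figure D2:**
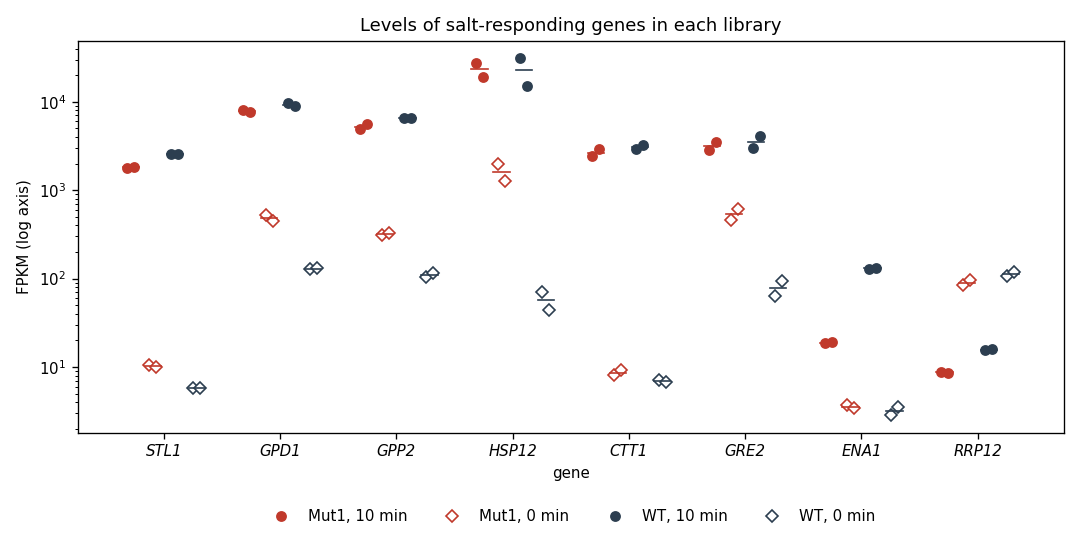
FPKM of 8 genes (log axis) in each library of Mut1 at 10 and 0 min and of WT at 10 and 0 min; each point is 1 library and the short line is the mean of the 2. GPD1, GPP2, HSP12 and GRE2 differ by at most 1.26-fold (GPP2) between the strains at 10 min but start higher in Mut1. ENA1 starts at a similar level and stays near 19 FPKM in Mut1 against about 130 FPKM in WT.

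Of the genes of the pathway itself, SSK1 rose and SSK22 fell. Of 16 tested genes of the phosphorelay and the Hog1 cascade, 2 rose (12.5%, beside 15.8% of all features) and 1 fell (6.25%, beside 15.5%); with the block 4 rose and 6 fell, beside 31.4% and 26.7% of all features. SSK22, which encodes a kinase under Ssk1, had 3.84 and 3.63 FPKM at 10 min and 11.6 and 12.3 FPKM at 0 min, a fall of 1.45 ± 0.14 (SE) on the log2 scale (adjusted p = 1.57e-06). SSK1 itself had 39.3 and 50.4 FPKM at 10 min and 19.9 and 24.6 FPKM at 0 min (1.97-fold, adjusted p = 0.00261). The third called gene was SSK2, with a log2 change of 0.33 (adjusted p = 0.0417), which lost its call without library 0 of Mut1 at 10 min (adjusted p = 0.0997), library 1 at 10 min (0.184) or library 0 at 0 min (0.26). The replaced genes were measured at both times. SLN1 (chrIX:69791-73453, minus strand) had 14.1 and 16.9 FPKM at 10 min and 17.8 and 21.9 FPKM at 0 min (adjusted p = 0.0971, and 0.00181 with the block), and YPD1 (chrIV:33415-33918, minus strand) had 55.1 and 34.3 FPKM at 10 min and 76.2 and 67.5 FPKM at 0 min (adjusted p = 0.0722, and 0.00616 with the block). FPKM do not show whether a transcript carries the point changes. HOG1 and PBS2 had log2 changes of 0.19 ± 0.29 and 0.01 ± 0.56 (SE), neither past the threshold.

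Among the transcription factors and kinases under Hog1, 4 of 11 rose (36.36%, beside 15.8% of all features) and 2 fell (18.18%, near the 15.5% of all features). With the block 8 rose and 3 fell, beside 31.4% and 26.7% of all features. MSN2 had 103 and 115 FPKM at 10 min and 39.8 and 48.4 FPKM at 0 min (2.44-fold, adjusted p = 5.13e-06). CIN5, a bZIP factor, rose 4.83-fold (adjusted p = 5.02e-05), and RCK2, a kinase activated by Hog1, rose 1.89-fold (adjusted p = 6.54e-06). The related kinase gene RCK1 went the other way at a low level, with 1.58 and 1.42 FPKM at 10 min and 3.53 and 3.20 FPKM at 0 min (log2 change -0.80 ± 0.17 SE, adjusted p = 0.00217). MSN4 was called lower (log2 change -1.12, adjusted p = 0.0161), but not without library 0 at 10 min (adjusted p = 0.114) or library 1 at 0 min (0.149). USV1 was called higher (log2 change 3.02, adjusted p = 0.0113), but not without library 1 at 10 min (0.126) or library 0 at 0 min (0.0762). Of 10 phosphatase genes that act on MAP kinases or their regulators, 1 rose and 1 fell (10.0% each, beside 15.8% and 15.5% of all features). SDP1 rose 8.14-fold (limma, adjusted p = 3.47e-07) and MSG5 fell by 1.00 on the log2 scale (adjusted p = 0.000505). With the block 4 rose and 2 fell, beside 31.4% and 26.7% of all features. PTP2, whose product dephosphorylates Hog1, had 30.9 and 26.9 FPKM at 10 min and 26.4 and 26.3 FPKM at 0 min (adjusted p = 0.606).

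The general stress genes rose almost as a whole, 39 of 44 with none falling, at a median log2 change of 3.93. Besides CTT1 and ALD3, the steepest were FMP45, an eisosome membrane protein, with 257 and 460 FPKM at 10 min and 2.38 and 1.93 FPKM at 0 min (110-fold, adjusted p = 1.09e-07), and PHM7, with 244 and 364 FPKM at 10 min and 2.39 and 3.29 FPKM at 0 min (78.4-fold, adjusted p = 2.51e-08). NQM1, a transaldolase, rose 69.3-fold and SOL4, a 6-phosphogluconolactonase, 60.6-fold, both enzymes tied to the pentose phosphate pathway. The small heat shock gene HSP42 rose 56.1-fold (adjusted p = 1.51e-05), with 378 and 846 FPKM at 10 min and 5.79 and 14.0 FPKM at 0 min. Of the 21 genes of trehalose and glycogen metabolism, 17 rose and none fell (median 2.12). TPS2, the trehalose-6-phosphate phosphatase, had 1724 and 1764 FPKM at 10 min and 58.0 and 54.7 FPKM at 0 min (30.4-fold, adjusted p = 5.06e-13). TSL1, a regulatory subunit of the same enzyme complex, rose 44.1-fold (adjusted p = 1.83e-06) and GLC3, the glycogen branching enzyme, rose 12.4-fold (adjusted p = 1.92e-08).

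Of 25 chaperone genes known as targets of Hsf1, 13 rose and none fell (20 and 0 with the block), with a median of 1.34. HSP26 had 208 and 307 FPKM at 10 min and 6.08 and 8.11 FPKM at 0 min (31.6-fold, adjusted p = 1.38e-08), and the disaggregase gene HSP104 had 780 and 690 FPKM at 10 min and 49.4 and 38.3 FPKM at 0 min (16.5-fold, adjusted p = 9.35e-09). HSP82 rose 10.8-fold (adjusted p = 2.07e-07), while its paralogue HSC82 had a log2 change of 0.38 that did not pass (adjusted p = 0.45) but did with the block (0.00621). Autophagy genes were another group that rose, 17 of 24 with none falling and a median of 1.19. ATG8, the ubiquitin-like protein of the autophagosome, had 313 and 246 FPKM at 10 min and 86.5 and 77.7 FPKM at 0 min (3.35-fold, adjusted p = 1.57e-06), and ATG7, its activating enzyme, rose 3.61-fold (adjusted p = 3.76e-06). Of 28 genes of calcineurin signalling and ion transport, 9 rose (32.14%) and 2 fell (7.143%), beside 15.8% and 15.5% of all features. With the block 16 rose and 5 fell, beside 31.4% and 26.7% of all features. The calmodulin-dependent kinase gene CMK2 rose 8.13-fold (adjusted p = 3.81e-09) and the vacuolar calcium pump gene PMC1 4.71-fold (adjusted p = 1.70e-08). PMA1, the proton pump of the plasma membrane, had 2799 and 2429 FPKM at 10 min and 6365 and 5643 FPKM at 0 min (log2 change -1.20 ± 0.18 SE, adjusted p = 0.000143).

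Genes for making ribosomes fell together. Of 127 ribosome biogenesis genes, 124 fell and none rose, beside 15.5% of all features that fell, and the median log2 change was -2.09. DHR2, an RNA helicase of the small subunit processome, had 1.76 and 1.32 FPKM at 10 min and 33.4 and 32.4 FPKM at 0 min (log2 change -3.74 ± 0.18 SE, adjusted p = 3.16e-09). RRP12, which acts in export of both subunits, had 8.74 and 8.60 FPKM at 10 min and 84.3 and 96.0 FPKM at 0 min (log2 change -3.23 ± 0.18 SE, adjusted p = 9.35e-09). SYO1, the import chaperone of ribosomal proteins L5 and L11, had 4.34 and 4.88 FPKM at 10 min and 51.0 and 52.9 FPKM at 0 min (log2 change -3.24 ± 0.28 SE, adjusted p = 5.96e-07). The groups were far apart in all 3. NOG2, a GTPase of the pre-60S particle, fell by 3.45 on the log2 scale (adjusted p = 9.35e-09); its value is uncertain because the gene overlaps the small nucleolar RNA gene SNR191. The steepest fall outside the biogenesis list, among features above 0, was that of TOD6, a repressor that binds the PAC motif, with 2.26 and 2.53 FPKM at 10 min and 57.7 and 86.9 FPKM at 0 min (log2 change -4.41 ± 0.25 SE, adjusted p = 9.35e-09). IFH1, a coactivator of ribosomal protein genes, fell by 1.26 (adjusted p = 2.19e-06), and SFP1, an activator of ribosomal genes, rose 1.53-fold (adjusted p = 0.000939). MIN3 was listed at 0 FPKM in both Mut1 10 min libraries and had 263 and 74.2 FPKM at 0 min; its call (adjusted p = 0.00838) was lost without library 0 at 0 min (0.0736).

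RNA polymerases I and III followed, with 21 of 36 genes lower (58.33%, beside 15.5% of all features) and 2 higher (5.556%, beside 15.8%). RPA135, the second largest subunit of polymerase I, had 37.4 and 36.4 FPKM at 10 min and 173 and 192 FPKM at 0 min (log2 change -2.27 ± 0.16 SE, adjusted p = 6.77e-08). RRN11, a subunit of the polymerase I core factor, fell by 2.77 (adjusted p = 2.17e-07). The 2 called higher, TFC3 and TFC1, encode subunits of the polymerase III factor TFIIIC. TFC3 had a log2 change of 0.79 (adjusted p = 0.00395) and lost its call without library 1 at 10 min (0.0586) or library 0 at 0 min (0.0726). TFC1 had a log2 change of 0.38 (adjusted p = 0.0429) and lost its call without any 1 of the 4 libraries (0.0932 to 0.194). Ribosomal protein genes moved less. Of 138, 36 fell (26.09%, beside 15.5% of all features) and none rose, with a median of -0.57. With the block 123 fell, beside 26.7% of all features. After rescaling by median ratios 22 fell, beside 1052 of all 6359 features. The count was 31 without library 0 at 10 min, 15 without library 1 at 10 min, 16 without library 0 at 0 min and 35 without library 1 at 0 min. RPS27A had 1931 and 1456 FPKM at 10 min and 4783 and 4399 FPKM at 0 min (log2 change -1.45 ± 0.17 SE, adjusted p = 1.17e-05).

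**Figure D3:**
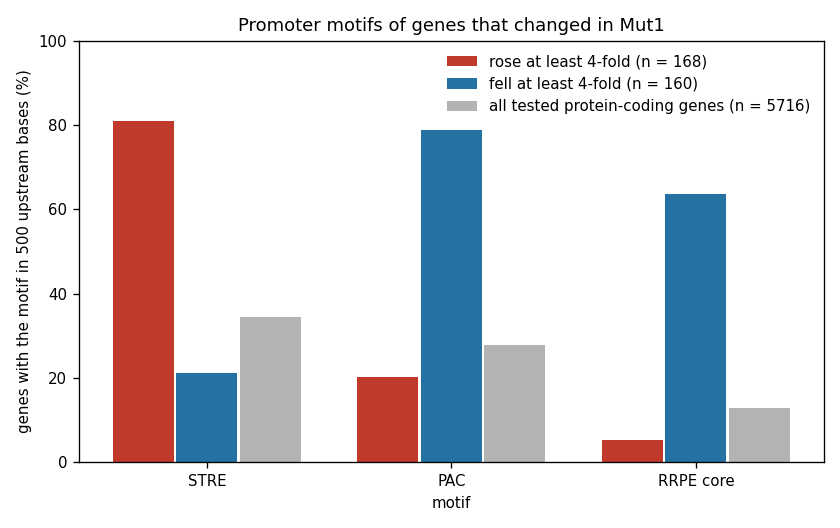
Share of genes (%) with at least 1 STRE, PAC or RRPE core in the 500 bases before the gene start, for genes that rose at least 4-fold in Mut1 (red), fell at least 4-fold (blue) and all tested protein-coding genes (grey). The STRE is in 81.0% of the first, 21.2% of the second and 34.5% of all, and PAC in 20.2%, 78.8% and 27.9%.

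The motifs shown above were counted in the 500 bases before the start of 5716 tested protein-coding genes, on both strands, with overlapping matches counted separately. These windows can reach into a neighbouring gene. The STRE was present before 136 of 168 genes that rose at least 4-fold (81.0%), 34 of 160 that fell at least 4-fold (21.2%) and 34.5% of all. More than 1 STRE stood before 45.8% of these risen genes and 8.33% of all genes. PAC was present before 126 of the 160 fallen genes (78.8%), 34 of the 168 risen genes (20.2%) and 27.9% of all. The RRPE core, AAAATTTT, which reads the same on both strands, stood before 63.7% of the fallen genes, 5.36% of the risen genes and 12.8% of all. GRE2 had no STRE in its window although it rose, and FMP48, a kinase gene that rose 55.5-fold, had 1. These are matches of letters and were not tested as binding sites.

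Other metabolic groups divided, and their counts stand beside 15.8% of all features that rose and 15.5% that fell. With the block these shares of all features were 31.4% and 26.7%. In the hexose transporter, iron and copper and amino acid lists, the share that rose was below that of all features, with or without the block. In the hexose transporter list HXT5 rose 28.2-fold and HXT1, of low affinity, rose to 3814 and 3720 FPKM at 10 min, against 980 and 951 FPKM at 0 min (3.90-fold, adjusted p = 1.84e-09), while HXT2, HXT3 and HXT4 fell by 2.04, 2.47 and 1.59 on the log2 scale. HXT3 had 198 and 140 FPKM at 10 min and 1099 and 783 FPKM at 0 min (adjusted p = 4.17e-06). Of 16 genes in that list, 2 rose and 4 fell (3 and 5 with the block). Respiration had 14 of 48 genes higher and 3 lower (22 and 4 with the block), among them CYC7, the minor isoform of cytochrome c, up 24.0-fold (adjusted p = 5.69e-05), and HAP4, the activating subunit of the respiratory regulator, down by 2.15 (adjusted p = 2.98e-07). In the iron and copper list, 4 of 28 rose and 8 fell (8 and 10 with the block), and 5 fell without library 1 at 0 min. FRE1, a metal reductase of the cell surface, had 20.0 and 12.1 FPKM at 10 min and 191 and 171 FPKM at 0 min (log2 change -3.45 ± 0.27 SE, adjusted p = 2.46e-07), and the cell wall mannoprotein gene FIT1 rose 7.003-fold (adjusted p = 3.01e-05). Of 52 genes of amino acid biosynthesis, 22 fell and 2 rose, and the rises numbered 0 without library 0 at 10 min or library 1 at 0 min and 1 without either of the other 2. LEU1 and LYS1 were the 2, with log2 changes of 0.58 and 0.39 (adjusted p = 0.00615 and 0.0187, and up to 0.0687 and 0.0831 without 1 library). LEU2, which is outside this list and is also the marker at the reporter, had 843 and 974 FPKM at 10 min and 272 and 324 FPKM at 0 min (3.04-fold, adjusted p = 6.51e-06).

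Several cell cycle genes fell, and the list counts below stand beside 15.5% of all features that fell and 15.8% that rose. With the block these shares of all features were 26.7% and 31.4%. Of 21 G2/M genes, 13 fell and none rose (19 and 1 with the block; median -0.81), with CLB2, the main mitotic cyclin, at 13.9 and 17.9 FPKM at 10 min and 51.3 and 51.8 FPKM at 0 min (log2 change -1.65 ± 0.14 SE, adjusted p = 4.88e-07), and CDC20, the activator of the anaphase-promoting complex, down by 1.69 (adjusted p = 6.18e-05). Of 20 M/G1 genes, 10 fell and none rose (14 and 2 with the block). None of 10 histone genes was called without the block, and 1 rose with it. In the mating pathway, 13 of 33 fell and 2 rose (17 and 7 with the block). The number that fell was 6, 9, 10 and 7 without library 0 at 10 min, library 1 at 10 min, library 0 at 0 min and library 1 at 0 min. STE2, the receptor for alpha factor, had 81.8 and 65.8 FPKM at 10 min and 248 and 189 FPKM at 0 min (log2 change -1.55 ± 0.18 SE, adjusted p = 1.09e-05), and FAR1, which arrests the cycle in response to pheromone, had 18.1 and 18.1 FPKM at 10 min and 49.4 and 61.6 FPKM at 0 min (log2 change -1.56 ± 0.15 SE, adjusted p = 2.04e-06). FUS1, a cell fusion gene, stayed low, at 3.00 and 3.91 FPKM at 10 min and 1.03 and 1.37 FPKM at 0 min (2.02-fold, adjusted p = 0.00196). Of 21 mannosyltransferase genes of the Golgi, 10 fell and 3 rose, with MNN1 down by 1.64 (adjusted p = 1.46e-06) and KTR4 up 2.00-fold (adjusted p = 4.41e-06). The fallen mannosyltransferases numbered 6 without library 1 at 10 min and 8 without any of the other 3 libraries. OCH1, the first enzyme of outer chain mannosylation, did not pass (174 and 204 FPKM at 10 min, 143 and 173 FPKM at 0 min, adjusted p = 0.329) but was called higher with the block (0.00502).

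**Figure D4:**
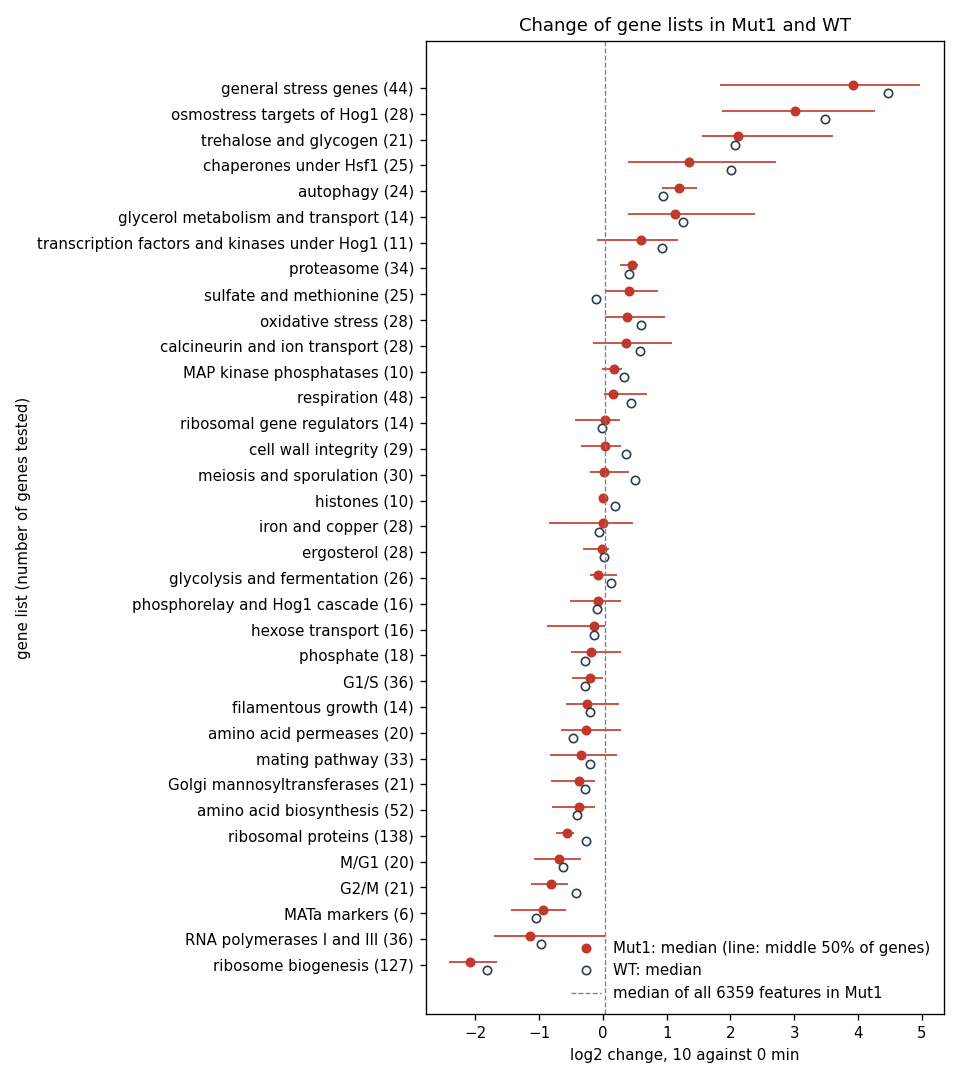
Median log2 change of each gene list at 10 against 0 min in Mut1 (red, with a line over the middle 50% of its genes) and in WT (open), sorted by the Mut1 median; the number of genes tested is in brackets. The list medians run from 3.93 for general stress genes to -2.09 for ribosome biogenesis, and the dashed line is the median of all features, 0.03.

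The response of Mut1 was set beside that of the WT strain, in which general stress genes and Hog1 targets also rose (40 of 44 and 26 of 28) and ribosome biogenesis genes also fell (116 of 127). In WT, 1117 features (17.6%) rose and 1122 (17.6%) fell, 35.2% in all. Features that rose in both strains numbered 752, which is 74.75% of the Mut1 rises and 67.32% of the WT rises, and 783 fell in both, 79.49% of the Mut1 falls and 69.79% of the WT falls. Only 4 rose in Mut1 and fell in WT, and 7 did the opposite. The difference of the changes (Mut1 minus WT, tested as an interaction) was called for 165 features, 57 higher (0.896%) and 108 lower (1.7%) in Mut1; with the block it was 471 higher (7.41%) and 571 lower (8.98%). A fit to the compared groups alone called 7. Fits without 1 of the 8 libraries called 79 to 111, and the fewest, 79, were without library 0 of WT at 0 min. The count was 81 without either library of Mut1 at 10 min and 92 without either at 0 min. It was 103 and 85 without library 0 and library 1 of WT at 10 min, and 111 without library 1 of WT at 0 min. After rescaling by median ratios, 68 were higher and 150 lower.

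The list of Hog1 targets was chosen with earlier results of these data known, so its counts are not an independent test. Among the 28 targets, the change was lower in Mut1 than in WT for 12 and higher for none. Of all features, 1.7% were lower and 0.896% higher. With the block, beside 8.98% and 7.41% of all features, 14 targets were lower and 2 higher. Fits without 1 library called 10 or 11 of them lower. STL1 had 2588 and 2532 FPKM in WT at 10 min and 5.78 and 5.76 FPKM in WT at 0 min, and its change was smaller in Mut1 by 1.24 ± 0.15 (SE) on the log2 scale (adjusted p = 0.000382). Several of these genes stood higher in Mut1 already before salt. GPD1 in WT had 9581 and 8871 FPKM at 10 min and 128 and 131 FPKM at 0 min, so Mut1 stood 3.71-fold above WT at 0 min (adjusted p = 1.22e-06) whereas the 10 min difference did not pass (adjusted p = 0.338), and the change differed by -2.12 ± 0.19 (adjusted p = 3.45e-05). GPP2 was 2.88-fold higher in Mut1 than in WT at 0 min (adjusted p = 1.12e-05), with a difference in change of -1.85 (adjusted p = 0.000124). At 10 min GPP2 was 1.26-fold lower in Mut1, which did not pass (adjusted p = 0.141) but did with the block (0.00328). HSP12 in WT had 30900 and 15120 FPKM at 10 min and 69.7 and 43.8 FPKM at 0 min. It was 28.0-fold higher in Mut1 than in WT at 0 min (adjusted p = 1.27e-05), and its change differed by -4.73 ± 0.63 (adjusted p = 0.000881). GRE2 (6.76-fold) and DDR2 (35.6-fold) were also higher in Mut1 at 0 min, with differences in change of -2.92 and -4.36 (adjusted p = 0.000364 and 0.000161). Across the 108 features with a lower change, Mut1 was above WT at 0 min for 52 and below for 2, and at 10 min below for 66 and above for 4. A lower change requires a level above WT at 0 min, below WT at 10 min or both. The direction of these counts therefore follows from how the features were chosen.

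ENA1 showed the other form, with no called difference at 0 min and a lower level at 10 min. It had 129 and 132 FPKM in WT at 10 min and 2.88 and 3.52 FPKM in WT at 0 min, and Mut1 was 6.64-fold lower than WT at 10 min (adjusted p = 1.33e-07; difference in change -2.86 ± 0.22, adjusted p = 7.01e-06). RCK1 had 6.53 and 7.51 FPKM in WT at 10 min and 2.24 and 2.06 FPKM in WT at 0 min, so it rose in WT and fell in Mut1 (difference -2.15, adjusted p = 0.000223). YDL129W had 13.29 and 11.04 FPKM in Mut1 at 10 min and 24.9 and 27.6 FPKM in Mut1 at 0 min, against 102 and 110 FPKM in WT at 10 min and 37.8 and 36.2 FPKM in WT at 0 min (difference -2.55 ± 0.19, adjusted p = 6.72e-06). The meiotic kinase genes IME2 and SPS1 had log2 changes of 0.22 and -0.09 in Mut1, neither called, and rose in WT, with differences of -1.71 and -1.82 (adjusted p = 0.000405 and 0.00414). PDC6, a minor pyruvate decarboxylase, was at 1.87 and 1.98 FPKM in Mut1 at 10 min and at 13.9 and 12.4 FPKM in WT at 10 min (difference -2.51, adjusted p = 0.000133). PTP2 had 28.2 and 35.8 FPKM in WT at 10 min and 10.8 and 12.9 FPKM in WT at 0 min, so Mut1 stood 2.13-fold above WT at 0 min (adjusted p = 0.000392), and the 10 min difference did not pass (adjusted p = 0.663). Its change differed by -1.23 ± 0.21 (adjusted p = 0.00601).

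**Figure D5:**
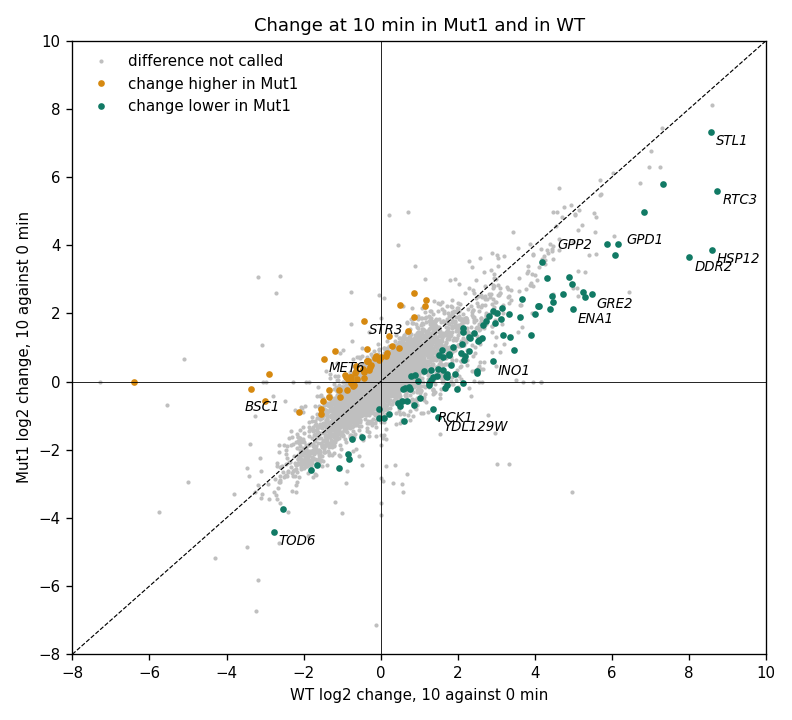
Log2 change at 10 against 0 min in Mut1 (vertical axis) and in WT (horizontal axis) for each tested feature; the dashed line marks equal change. Green points (108) changed less upward or more downward in Mut1 and orange points (57) the other way; HSP12, DDR2, GRE2 and ENA1 lie well below the line, and STR3, MET6 and BSC1 above it. The orange point at a WT change of -6.39 is tL(GAG)G, which is listed at 0 FPKM in 3 of the 4 groups.

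In sulfate and methionine metabolism, 6 of 25 genes rose in Mut1 (24.0%, beside 15.8% of all features) and 1 fell, with a median of 0.40. With the block 13 rose and 2 fell, beside 31.4% and 26.7% of all features. In WT 1 rose and 4 fell, with a median of -0.10, beside 17.6% of all features in each direction. The rises in Mut1 numbered 5, 3, 4 and 5 without library 0 at 10 min, library 1 at 10 min, library 0 at 0 min and library 1 at 0 min. The difference was called higher for 2 of the 25, MET6 and the cystathionine beta-lyase gene STR3 (9 with the block), and only without library 0 of Mut1 at 10 min did STR3 keep its call in fits without 1 library (adjusted p up to 0.142). Of all features, the difference was called higher for 0.896%, or 7.41% with the block. MET6, methionine synthase, had 354 and 323 FPKM in Mut1 at 10 min and 252 and 178 FPKM in Mut1 at 0 min. In WT MET6 had 77.8 and 53.8 FPKM at 10 min and 222 and 148 FPKM at 0 min. Its log2 change in Mut1 did not pass (0.67, adjusted p = 0.068) but did with the block (0.000823), it fell in WT, and the difference was 2.14 ± 0.37 (adjusted p = 0.00601). MUP3, a low-affinity methionine permease, had 37.9 and 47.8 FPKM in Mut1 at 10 min and 7.60 and 10.2 FPKM at 0 min (4.43-fold, adjusted p = 1.42e-05); its difference from WT, 1.34, did not pass (adjusted p = 0.0707) but did with the block (7.00e-05). MET3, the sulfate adenylyltransferase, rose 2.01-fold in Mut1 (adjusted p = 0.000368) and was above WT 3.63-fold at 0 min and 5.70-fold at 10 min (adjusted p = 1.26e-05 and 8.92e-07).

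Other genes with a higher change in Mut1 included some that rose more. AMS1, the vacuolar alpha-mannosidase, had 49.7 and 56.8 FPKM in Mut1 at 10 min and 8.77 and 10.0 FPKM in Mut1 at 0 min, against 15.9 and 17.6 FPKM in WT at 10 min and 6.81 and 6.85 FPKM in WT at 0 min (difference 1.20 ± 0.18, adjusted p = 0.00206). The phosphoribomutase gene PRM15 rose 1.94-fold in Mut1 (adjusted p = 0.000352; difference 1.32, adjusted p = 0.00601). Others fell in WT, with a 0 min level in Mut1 below that in WT. BSC1 had 4.16 and 4.45 FPKM in Mut1 at 10 min and 4.67 and 5.82 FPKM in Mut1 at 0 min, against 2.39 and 2.67 FPKM in WT at 10 min and 29.2 and 42.9 FPKM in WT at 0 min (difference 3.14 ± 0.33, adjusted p = 0.000124). PHO84, the high-affinity phosphate transporter, had 20.4 and 15.8 FPKM in Mut1 at 10 min and 28.5 and 25.9 FPKM in Mut1 at 0 min, against 26.04 and 30.93 FPKM in WT at 10 min and 167 and 325 FPKM in WT at 0 min (difference 2.42, adjusted p = 0.00601), with reads that are uncertain because an antisense RNA gene overlaps it. HIS4, of histidine synthesis, was 2.35-fold lower in Mut1 than in WT at 0 min (adjusted p = 4.93e-05) and its change differed by 1.09 (adjusted p = 0.00601). Over the 57 features with a higher change, Mut1 was below WT at 0 min for 12 and above WT at 10 min for 45. The direction of these counts, too, follows from how the features were chosen.

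Against the other mutants the 10 min libraries are in the second set of libraries described above, so strain and set cannot be told apart in those differences. Mut1 differed from Mut2, which has 1 change more in Ypd1, in 1 feature (0.0157%), RPL43A, 1 of the 3 genes that define the sets; 40 features had an unadjusted p under 0.05, and 4 were called with the block, 2 after rescaling, 0 with the compared groups alone, 2 without library 0 of Mut1 at 10 min or library 1 of Mut1 at 0 min, and 3 without library 0 of Mut1 at 0 min. STL1 had a difference of 0.03 ± 0.15 (SE), GPD1 of -0.21 ± 0.19 and HSP12 of -0.57 ± 0.63 on the log2 scale, none past the threshold. In Mut2, STL1 had 1713 and 1623 FPKM at 10 min and 9.77 and 9.42 FPKM at 0 min. Mut3 differed from Mut1 more often, with 7 features higher (0.11%) and 37 lower (0.582%) in Mut1, and 142 and 273 with the block. In all 44 were called, against 81 after rescaling, 1 in a fit to the compared groups alone and 23 to 35 without 1 library, the fewest without library 1 of Mut3 at 10 min. The count was 25 and 26 without library 0 and library 1 of Mut1 at 10 min, 27 without library 1 of Mut1 at 0 min and 26 without library 0 of Mut3 at 0 min. Among those lower in Mut1 were STL1 (difference -1.13, adjusted p = 0.00227), GPD1 (-1.65, adjusted p = 0.000886), GPP2 (-1.38, adjusted p = 0.00294), ENA1 (-1.77, adjusted p = 0.00129) and PTP2 (-1.46, adjusted p = 0.00374), each called in all 8 fits without 1 library. GPD1 in Mut3 had 10190 and 9138 FPKM at 10 min and 185 and 189 FPKM at 0 min, a 0 min level between those of Mut1 and WT. GRE2 had a difference of -0.23 from Mut3 (adjusted p = 1.00), with 490 and 720 FPKM in Mut3 at 0 min.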

How the data were processed

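Poly(A) RNA of 24 libraries (miRNeasy with DNase, TruSeq stranded mRNA, per the labels' protocols) was measured as FPKM per feature in a table deposited by the authors. TopHat2, Cuffdiff and the sacCer3 build were used, per the submitters' processing notes. Versions, settings and annotation: not given in the sources used here. Low FPKM multiplied by length showed no clean steps of whole reads, so depth is unknown and no count test was run. Column suffixes (0 and 1) are called library 0 and library 1, since they could not be matched to the replicate numbers of the labels.

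Of 7126 features, 6162 were matched to the R64 RefSeq annotation and 964 kept the name in the table; 481 were at 0 in all libraries. Tested were the 6359 features (5717 protein-coding) whose average in the 24 libraries was 1 FPKM or more. Values were transformed to log2(FPKM + 1) and fitted in limma 3.58.1 (R 4.3.3) with a mean for each of 12 groups. The residual degrees of freedom were 12, shared by all groups, and the moderation added 1.88. P-values were adjusted by the Benjamini-Hochberg method over all tested features, with calls at an adjusted p under 0.05. All fold changes are on the log2(FPKM + 1) scale, which understates those of low genes. Genes that overlap another (189 tested) or have a near-identical copy by blastn 2.17.0 (172 tested) are treated as uncertain. The fit was also run on simulated data with known changes. No outcome of that run is given here, so no conclusion about the calls is drawn from it.

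Library 0 and library 1 pair across groups: deviations from the group means correlated at 0.23 to 0.601 in all 66 pairs of groups (median 0.469), and at 0.497 between Mut1 at 0 and 10 min. The fit without the pair as a block is the one reported. Alternatives were a pseudocount of 0.1, no filter, median-ratio rescaling, the block, protein-coding genes alone, the compared groups alone and leaving out each library.

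The named genes are the pathway components, the 15 largest rises and falls, up to 4 per gene list with any member against the majority, and the largest differences between strains (up to 12 per direction against WT and 5 against Mut2 and Mut3). Other genes in the text (such as MSN2, RCK2, HIS4 and MUP3) illustrate a list or a strain difference and were chosen after their values were seen. The members and lists were chosen with earlier results of these data known.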

Additional observations from a re-analysis of the deposited data

Results flagged for a closer look

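The genes given here are those whose change at 10 min differed between Mut1 and another strain in a test of that difference (limma, adjusted p under 0.05), among the largest differences. Against WT, the change was lower in Mut1 by log2 differences of -4.73 for HSP12, -4.36 for DDR2, -3.14 for RTC3, -2.92 for GRE2, -2.86 for ENA1, -2.83 for YOL150C, -2.61 for YJL107C, -2.55 for YDL129W, -2.53 for YLR108C, -2.38 for MPC3, -2.31 for INO1 and -2.27 for DIA1. ENA1, YJL107C and DIA1 share sequence or position with another gene and are uncertain. YOL150C had 4375 and 6352 FPKM in Mut1 at 10 min and 835 and 1081 FPKM in Mut1 at 0 min, against 5230 and 7221 FPKM in WT at 10 min and 124 and 195 FPKM in WT at 0 min.

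The change was higher in Mut1 than in WT by 3.14 for BSC1, 3.12 for PRM7, 2.42 for PHO84, 2.21 for STR3, 2.14 for MET6, 2.09 for YIR020W-A, 1.77 for KIN82, 1.74 for YNL092W, 1.32 for PRM15, 1.22 for HO and 1.20 for AMS1. The tRNA gene tL(GAG)G had a fitted difference of 6.39, but it was listed at 0 FPKM in both Mut1 groups and in WT at 10 min and had 56.0 and 123 FPKM in WT at 0 min. Some of these calls were lost when 1 library was left out. YOL150C (adjusted p up to 0.0705), INO1 (0.0972) and DIA1 (0.0789) lost theirs without library 0 of Mut1 at 10 min, library 1 of Mut1 at 0 min, library 1 of WT at 10 min or library 0 of WT at 0 min, and MPC3 (0.0929) without these or library 1 of WT at 0 min. RTC3 (0.127) lost its call without either library of Mut1 at 10 min, library 0 of Mut1 at 0 min, library 0 of WT at 10 min or library 1 of WT at 0 min. STR3 (0.142) kept it only without library 0 of Mut1 at 10 min, and HO (0.14) only without library 0 of WT at 10 min. YIR020W-A (0.0782) kept it only without library 1 of Mut1 at 0 min or library 0 of WT at 0 min, and KIN82 (0.124) lost it without any 1 of the 8.

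Against Mut3, the change was lower in Mut1 by -5.34 for RPL43A, -4.43 for RPL22A, -3.79 for RPL36B, -3.09 for HSP12 and -2.32 for DIA1, and higher by 2.25 for MET6, 2.09 for PHO84, 1.27 for MET3, 1.16 for SAM3 and 1.16 for MET5. RPL43A also differed from Mut2, by -5.35. The 3 ribosomal protein genes are those by which the libraries fall into 2 sets, and the set and the strain cannot be told apart at 10 min. RPL36B lost its call without library 1 of Mut1 at 10 min (adjusted p = 0.0535). MET6 (up to 0.0578) lost it without library 0 of Mut1 at 10 min, library 1 of Mut1 at 0 min, library 1 of Mut3 at 10 min or library 0 of Mut3 at 0 min, and DIA1 (0.157) without these or library 1 of Mut1 at 10 min. SAM3 (0.0973) kept it only without library 0 of Mut1 at 10 min, library 1 of Mut3 at 10 min or library 0 of Mut3 at 0 min. HSP12 (0.205) and MET3 (0.156) kept it only without library 0 of Mut3 at 0 min, and PHO84 (0.199) only without library 1 of Mut3 at 0 min.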

How the results depend on the processing

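In Mut1 at 10 against 0 min, 1991 features were called (1006 rose, 985 fell), and a pseudocount of 0.1, no filter, median-ratio rescaling and protein-coding genes alone kept each count within 1.5 times. With a replicate block there were 3697 (1998 and 1699), with a replicate block within each strain 3698 (1996 and 1702), and with the block and rescaling, added after seeing the data, 3813 (1898 and 1915). The compared groups alone gave 1014 (488 and 526). Leaving out 1 library gave 1412 to 1686 called, 687 to 928 that rose and 725 to 800 that fell. For Mut1 minus WT, the 165 calls became 1042, 1034 and 1258 with these 3 blocked fits and 7 with the compared groups alone, and 79 to 111 without 1 library. For Mut1 minus Mut2, the 1 call became 2 with rescaling, 4, 4 and 5 with the blocked fits, 0 with the compared groups alone (1 in the fit to all groups), and 1 to 3 without 1 library. For Mut1 minus Mut3, the 44 calls became 81 with rescaling, 415, 403 and 520 with the blocked fits, 1 with the compared groups alone, and 23 to 35 without 1 library. The cause of these shifts was not tested, except that fits of fewer groups have fewer residual degrees of freedom. RNA genes summed to 72600 FPKM in library 0 of Mut2 at 20 min, against 3934 FPKM in library 1 of that group. The next highest sum was 14790 FPKM, in library 0 of WT at 0 min. The spread shared by all groups in the reported fit includes library 0 of Mut2 at 20 min. Leaving out library 0 of Mut2 at 20 min, added after seeing the data, kept every count within 1.5 times (148 against WT, 43 against Mut3). Of 202 named features, 202 kept direction and call with the pseudocount, 201 without the filter, 191 with rescaling, 196 with the block (6 more were called) and 178 to 186 without 1 library; none reversed. Depth is unknown, so no limit from counting can be given.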

Other observations

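Several gene groups not described above held smaller numbers of calls in Mut1 at 10 min, beside 15.8% of all features that rose and 15.5% that fell. The counts with the block stand beside 31.4% of all features that rose and 26.7% that fell. In glycolysis and fermentation, 5 of 26 genes rose and 3 fell (7 and 6 with the block). HXK1, a hexokinase, had 651 and 822 FPKM at 10 min and 49.5 and 48.5 FPKM at 0 min (14.7-fold, adjusted p = 9.86e-07 in limma), while the abundant enzymes TDH3, PGK1 and PDC1 had log2 changes of -0.14, 0.24 and -0.20, none past the threshold. In the cell wall list, 5 of 29 rose and 2 fell (8 and 7 with the block). CHS1, a chitin synthase, rose by 2.06 on the log2 scale, and CHS3, another, fell by 0.92 (adjusted p = 5.33e-09 and 1.45e-05). SLT2, the MAP kinase of the cell wall pathway, had 112 and 283 FPKM at 10 min and 97.0 and 319 FPKM at 0 min, with libraries of like number close and libraries of 1 group far apart.

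In the proteasome list, 11 of 34 genes rose and none fell (26 and 0 with the block), with 9, 6, 7 and 9 without library 0 at 10 min, library 1 at 10 min, library 0 at 0 min and library 1 at 0 min. Its activator RPN4 had 88.8 and 108 FPKM in Mut1 at 10 min and 53.3 and 61.6 FPKM in Mut1 at 0 min (1.70-fold, adjusted p = 0.000149), against 150 and 151 FPKM in WT at 10 min and 30.8 and 34.0 FPKM in WT at 0 min. The difference in change was -1.42 ± 0.17 (SE, adjusted p = 0.000308). Of 36 G1/S genes, 8 fell and 1 rose (15 and 3 with the block), and the falls numbered 4, 5, 6 and 4 in the same order of left-out libraries. RNR1, a subunit of ribonucleotide reductase, fell by 1.17 (adjusted p = 0.000487), while the G1 cyclin genes CLN1, CLN2 and CLN3 had log2 changes of -0.32, -0.17 and 0.08, none past the threshold (with the block CLN1 passed, at an adjusted p of 0.0178).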
